A study of Mus musculus with 16 samples.

Results

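The UDP-glucuronosyltransferases (UGTs) and cytosolic sulfotransferases (SULTs) are the enzymes of conjugation, and their genes were followed in mouse liver under 4 oxygen regimes. Members were the protein-coding genes whose symbols begin with Ugt1a, Ugt2a, Ugt2b, Ugt3a or Sult and a number, with a nonzero count in at least 4 of 16 libraries. Of 46 genes with such symbols, 6 were not protein coding and 10 coding genes were seen in fewer libraries, which left 30 members among 55487 genes: 18 Ugt and 12 Sult genes. A few genes of these families were not analysed here.

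Livers came from wild type C57BL/6J mice aged 12 weeks, with 4 libraries in each group. The groups were intermittent hypoxia, overlap hypoxia (intermittent and sustained hypoxia combined, per the series title), sustained hypoxia, and room air, the control shared by all 3 exposures. The sources used here do not give oxygen levels, exposure times or the sex of the mice. Each library has a description number of its own, and these numbers run by group, so anything that follows them cannot be told apart from the exposure.

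UGTs sit in the endoplasmic reticulum and join glucuronic acid from UDP-glucuronic acid to bilirubin, steroids, bile acids, phenols and drugs. SULTs are cytosolic and join sulfonate from the donor PAPS (3'-phosphoadenosine-5'-phosphosulfate) to many of the same compounds, and both reactions make products that leave in bile or urine. The Ugt1a members are made from 1 locus in which each has its own first exon and all use the same later exons. The Ugt2 and Ugt3 members other than Ugt2a1 are separate genes. Of the exon bases of Ugt2a1, 98.8% also lie in exons of other genes on the same strand.

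That shared structure decides what a count of a Ugt1a member can show, so the sequences are given first. Shown are the first 60 coding bases of 4 members on chromosome 1, plus strand, genome build GRCm38 with GENCODE M21 gene models: Ugt1a1 (chr1:88212002-88212061), Ugt1a9 (chr1:88070830-88070889), Ugt1a6a (chr1:88138474-88138533) and Ugt1a6b (chr1:88106942-88107001). The last line is a stretch of 60 bases at chr1:88215044-88215103 that lies in the coding part of all 9 Ugt1a members.
Ugt1a1: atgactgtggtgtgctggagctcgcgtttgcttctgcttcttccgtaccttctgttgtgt
Ugt1a9: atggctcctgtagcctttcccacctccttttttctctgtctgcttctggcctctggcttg
Ugt1a6a: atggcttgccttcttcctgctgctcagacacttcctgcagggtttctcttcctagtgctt
Ugt1a6b: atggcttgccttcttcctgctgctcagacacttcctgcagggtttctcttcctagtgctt
Common stretch: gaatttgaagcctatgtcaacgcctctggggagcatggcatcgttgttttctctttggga

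Ugt1a1 and Ugt1a9 differed at 38 of these first 60 bases and Ugt1a1 and Ugt1a6a at 41, whereas Ugt1a6a and Ugt1a6b were identical over them. The 9 members shared the last 737 of the 1605 coding bases of Ugt1a1 without a difference. Between 52.1% (Ugt1a6a) and 80.2% (Ugt1a1) of the 50-base words in a Ugt1a member's transcripts also occurred in transcripts of other genes, so the count of each depends on how shared reads were divided. Words were searched on both strands, so these shares also take in genes on the other strand. The exons of such a gene, Gm20528, overlap all 9, up to 41.5% of the exon bases of Ugt1a1, and without a known strand setting its reads cannot be told apart from theirs. Of the Ugt2 and Ugt3 genes described below, Ugt2b5 shared 41.7% of its words with other genes, Ugt2b37 18.3%, Ugt3a1 7.599%, Ugt3a2 7.01% and Ugt2a3 4.55%. Ugt2b36 and Ugt2b35 shared 0.285% and 0.303%, so their counts hardly depend on that division.

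Promoters were read for 25 of the 30 members, 28 in all, from RefSeq (GRCm38.p6), each running from 250 bases before to 50 after the transcript start. They are shown for 4 genes of the chromosome 5 cluster that were lower in intermittent hypoxia. In capitals is ACGTG, a form of the core of the hypoxia-inducible factor site (or its complement CACGT, searched on both strands). Ugt2b37 (minus strand, chr5:87254739-87255038) and Ugt2b35 (plus strand, chr5:87000610-87000909) hold these letters, and Ugt2b5 (minus strand, chr5:87140291-87140590) and Ugt2b36 (minus strand, chr5:87092506-87092805) do not.
Ugt2b37: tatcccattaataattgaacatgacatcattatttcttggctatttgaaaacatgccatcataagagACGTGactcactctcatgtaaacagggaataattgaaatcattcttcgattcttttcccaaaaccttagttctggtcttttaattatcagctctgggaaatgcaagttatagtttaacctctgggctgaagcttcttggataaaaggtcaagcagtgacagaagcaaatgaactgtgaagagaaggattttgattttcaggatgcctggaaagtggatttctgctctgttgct
Ugt2b35: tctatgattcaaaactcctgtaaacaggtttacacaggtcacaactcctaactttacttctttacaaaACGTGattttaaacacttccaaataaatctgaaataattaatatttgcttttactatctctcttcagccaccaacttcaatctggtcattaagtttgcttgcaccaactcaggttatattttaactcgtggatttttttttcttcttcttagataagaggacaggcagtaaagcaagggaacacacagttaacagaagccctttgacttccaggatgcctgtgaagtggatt
Ugt2b5: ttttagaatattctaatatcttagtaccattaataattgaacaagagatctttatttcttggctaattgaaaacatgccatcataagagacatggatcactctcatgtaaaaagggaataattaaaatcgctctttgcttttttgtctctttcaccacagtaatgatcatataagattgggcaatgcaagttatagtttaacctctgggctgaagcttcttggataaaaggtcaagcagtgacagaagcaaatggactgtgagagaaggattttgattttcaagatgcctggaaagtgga
Ugt2b36: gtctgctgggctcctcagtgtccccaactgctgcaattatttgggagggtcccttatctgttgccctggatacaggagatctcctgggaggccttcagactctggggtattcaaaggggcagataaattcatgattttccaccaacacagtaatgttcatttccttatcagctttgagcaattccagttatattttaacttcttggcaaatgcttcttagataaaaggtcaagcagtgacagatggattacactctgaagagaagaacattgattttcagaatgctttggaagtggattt

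The letters began at -183 from the start of Ugt2b37 and at -182 from that of Ugt2b35. ACGTG was present in a promoter of 3 of the 25 members (12.0%, against 19.6% of 32841 RefSeq promoters of the same length), the other being Sult2b1, which was too low to test. GCGTG, the core of the aryl hydrocarbon receptor site and another form of the hypoxia-inducible factor core, was in 5 (20%, against 32.4%). The STAT5 site TTCNNNGAA was in 2 (8.0%, against 8.30%). The members' shares count genes, some with several promoters, whereas the background shares count promoters, so the units differ. These are matches of letters and not measured binding.

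Library totals lay between 10940275 counts (overlap hypoxia replicate 3) and 64789635 (sustained hypoxia replicate 2). The extraction text names retina, but the hepatocyte gene Alb stood at 36132 to 60643 CPM (counts scaled to the size of the library, with TMM scaling), while the photoreceptor genes Rcvrn and Gnat1 stood at 0 and at 2.80 to 10.6 CPM. Ribosomal RNA took 18.5% to 34.8% of counts in intermittent hypoxia, 2.53% to 16.8% in overlap hypoxia, 1.55% to 2.77% in sustained hypoxia and 1.57% to 10.2% in room air, and mitochondrial transcripts 6.23% to 11.7%, 2.54% to 7.17%, 1.43% to 1.73% and 1.18% to 2.75% in the same order. Major urinary protein (Mup) genes took 2.83% to 10.4%, 11.7% to 20.5%, 9.63% to 21.4% and 14.7% to 25.4%. Intermittent hypoxia libraries did not overlap the room air libraries in any of the 3 shares. In bulk tissue, fewer cells of a type and less RNA per cell cannot be told apart.

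Summed over both families, the 30 members held a median of 3838 CPM in intermittent hypoxia (3020 to 4027), 4435 CPM in overlap hypoxia (4131 to 4707), 5321 CPM in sustained hypoxia (4849 to 6254) and 5997 CPM in room air (5245 to 6211). The intermittent hypoxia range lay below all others and the overlap hypoxia range below both sustained hypoxia and room air. The Ugt genes carried most of this difference, with a median of 2698 CPM in intermittent hypoxia, 3186 CPM in overlap hypoxia, 4000 CPM in sustained hypoxia and 4647 CPM in room air. The Sult genes together held 1113, 1268, 1411 and 1394 CPM in these groups, with ranges that overlapped between intermittent hypoxia (798 to 1318) and room air (1297 to 1489). The sums are descriptions and carry no test.

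By subfamily, Ugt2b summed to 1433 to 1857 CPM in intermittent hypoxia, 1770 to 2440 CPM in overlap hypoxia, 2280 to 3360 CPM in sustained hypoxia and 2751 to 3430 CPM in room air. Ugt3a summed to 155 to 190 CPM in intermittent hypoxia, 170 to 240 CPM in overlap hypoxia, 246 to 293 CPM in sustained hypoxia and 288 to 372 CPM in room air. In both subfamilies the intermittent and overlap libraries lay wholly below the room air libraries, while sustained hypoxia overlapped room air. Ugt1a summed to 505 to 835 CPM in intermittent hypoxia, 634 to 754 CPM in overlap hypoxia, 780 to 907 CPM in sustained hypoxia and 596 to 771 CPM in room air, so only sustained hypoxia lay above all room air libraries. Sult2 stood at 410 to 711 CPM in intermittent hypoxia, below the 948 to 1039 CPM of room air, and Sult1 at 355 to 650 CPM in intermittent hypoxia, across the 338.8 to 471 CPM of room air.

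**Figure D1:**
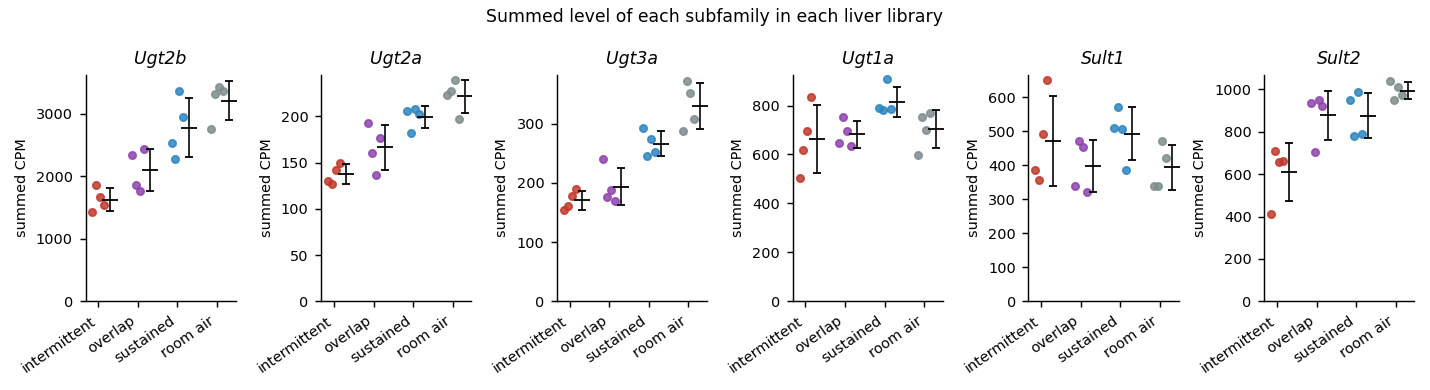
Summed level of the members of each subfamily (vertical axis, CPM, from 0) in each liver library (coloured points, 4 per group), with the mean ± SD of the group as a black bar. Ugt2b, Ugt2a and Ugt3a stand lowest in intermittent hypoxia (Ugt2b median 1603 CPM, against 3333 CPM in room air), whereas the Ugt1a and Sult1 points of these groups overlap.

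Per kilobase of exon, the scale on which levels of different genes may be compared, Ugt2b5 was highest at a mean of 574 CPM per kb over all libraries. It was followed by Ugt2b36 (391), Sult2a8 (255), Ugt1a1 (192), Sult1a1 (173), Ugt2b34 (89.7) and Ugt2a3 (85.6). Ugt2b37 stood at 1.31 CPM per kb, and 6 members were below 0.2 CPM per kb. In intermittent hypoxia the order of the leading genes changed: Ugt2b5 (360) and Ugt2b36 (235) were still first, but Sult1a1 (196), Ugt1a1 (191) and Sult2a8 (185) stood close together behind them. In room air Ugt2b5 (785), Ugt2b36 (532) and Sult2a8 (302) were far apart from Ugt1a1 (191) and Sult1a1 (137).

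Among the 18 Ugt members, the share of Ugt1a1 was 16.9% ± 3.2 in intermittent hypoxia, 13.3% ± 2.4 in overlap hypoxia, 11.5% ± 0.56 in sustained hypoxia and 9.58% ± 0.63 in room air (share of their summed CPM per kb, SD, n = 4 each). Ugt genes not analysed here are left out of that sum. Each exposure's libraries lay above all room air libraries, whose highest was 10.1%, although the level of Ugt1a1 itself overlapped between groups. The share of Ugt2b36 was 21.0% ± 1.2 in intermittent hypoxia, 23.2% ± 1.2 in overlap hypoxia, 26.1% ± 1.1 in sustained hypoxia and 26.6% ± 0.96 in room air. Such a share moves when any other Ugt member moves, and it says nothing of a change in Ugt1a1 itself.

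Against room air, most UGT2 and UGT3 genes of the liver stood lower in intermittent hypoxia, by 0.69 to 2.68 on the log2 scale for those called, while Ugt1a1, the main bilirubin-conjugating gene, had the same mean level in both groups. Of the 25 members that passed the filter on low counts, 11 were called lower and 2 higher (edgeR quasi-likelihood test, Benjamini-Hochberg adjusted p under 0.05 over 14553 genes). Over all genes tested, 18.3% were called lower and 18.9% higher, 37.1% in all. The median log2 fold change of the 25 was -0.63, against 0.03 for all genes tested. The 5 members that did not pass the filter, at about 0.23 CPM in too few libraries, were Sult2a2, Sult2b1, Sult3a1, Sult4a1 and Ugt2a1.

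Ugt2b36, a UGT of the chromosome 5 cluster, had 388, 505, 499.8 and 544 CPM in intermittent hypoxia, against 911, 1115, 1166 and 1188 CPM in room air. Every intermittent hypoxia library lay well below every room air library. It fell by 1.18 on the log2 scale (SE 0.16, edgeR adjusted p = 2.19e-05).

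Ugt2b5, its neighbour and the most abundant member per kilobase, had 598, 831, 678 and 573 CPM in intermittent hypoxia, against 1238, 1548, 1550 and 1498 CPM in room air. The groups did not overlap, and room air replicate 1 was the lowest of its group. It fell by 1.12 on the log2 scale (SE 0.17, edgeR adjusted p = 6.90e-05). Ugt2b35, on the opposite strand of the same cluster, averaged 106 ± 13 CPM in intermittent hypoxia and 208 ± 20 CPM in room air (SD, n = 4 each), again without overlap, and fell by 0.97 on the log2 scale (SE 0.15, edgeR adjusted p = 9.32e-05).

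Ugt2b37 is the closest relative of Ugt2b5 among the members by shared words (15.5% of those of Ugt2b5), but a rare transcript in these livers. It had 1.303, 0.871, 0.655 and 0.190 CPM in intermittent hypoxia, against 6.56, 6.33, 2.04 and 4.23 CPM in room air. All intermittent hypoxia libraries lay below all room air libraries, which themselves spread more than 3-fold. These values stand for 10.6 to 52.7 expected counts per library in intermittent hypoxia and 108 to 336 in room air. The fall of 2.68 on the log2 scale was the largest of any called member and the least precise of the Ugt2b genes (SE 0.68, edgeR adjusted p = 0.00665). Of the words of Ugt2b37, 15.2% also occur in Ugt2b5, a far more abundant gene that fell too. How far divided reads of Ugt2b5 enter these counts was not tested.

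Ugt2b34, at the end of the same cluster, had 335, 404, 382 and 329 CPM in intermittent hypoxia, against 400.0, 414, 488 and 479 CPM in room air. The groups overlapped through intermittent hypoxia replicate 2, and the log2 difference of -0.30 (SE 0.13) did not pass the test (edgeR adjusted p = 0.0900). Whether it differed from the change of its neighbours was not tested.

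The remaining gene of the UGT2 cluster with a level to test, Ugt2a3, whose human counterpart conjugates bile acids, had 130, 126, 142 and 150 CPM in intermittent hypoxia, against 223, 227, 239 and 197 CPM in room air. The groups were well apart, and the gene fell by 0.69 on the log2 scale (SE 0.12, edgeR adjusted p = 0.000262). Along the 701.8 kb from Ugt2b34 to Sult1e1 on chromosome 5, Ugt2b34 to Ugt2a3 all had negative log2 fold changes in intermittent hypoxia. Of the SULT genes at the far end, Sult1b1 stood at -0.65, Sult1d1 at -0.03 and Sult1e1 at 2.77. Sult1e1 reached the filter's cutoff in 3 intermittent hypoxia, 1 sustained hypoxia and 0 room air libraries. It could thus be tested mainly because it was high in intermittent hypoxia, and its value does not show a direction of the cluster.

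**Figure D2:**
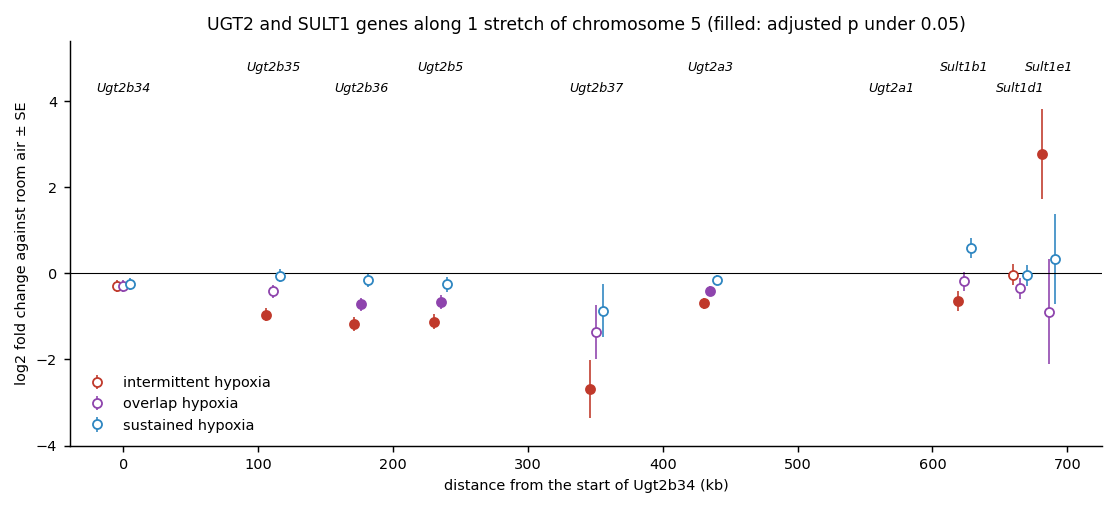
Log2 fold change against room air ± SE (vertical axis) for the tested genes of the chromosome 5 cluster, by distance from the start of Ugt2b34 in kb (horizontal axis, points of the exposures set apart slightly), for intermittent, overlap and sustained hypoxia. Filled points passed the test; from Ugt2b35 at 111.1 kb to Ugt2a3 at 435.2 kb every intermittent hypoxia point is filled and below 0, and Ugt2a1 at 569.7 kb was too low to test.

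The 2 Ugt3a genes lie next to each other on chromosome 15. In human, UGT3A enzymes use other sugars than glucuronic acid as donors. Ugt3a2 had 117, 112, 124 and 132 CPM in intermittent hypoxia, against 204, 276, 246 and 220 CPM in room air. The intermittent hypoxia values were close together and far below the room air values, a fall of 0.96 on the log2 scale (SE 0.13, edgeR adjusted p = 3.29e-05). Ugt3a1 had 37.9, 48.4, 54.4 and 57.4 CPM in intermittent hypoxia, against 84.0, 96.5, 106 and 88.8 CPM in room air. It fell by 0.92 on the log2 scale (SE 0.15, edgeR adjusted p = 9.75e-05), with no overlap.

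Of the 9 Ugt1a members, 2 were called lower and none higher in intermittent hypoxia, where 18.3% of all genes were called lower and 18.9% higher. Ugt1a1, the bilirubin-conjugating enzyme, had 295, 388, 480 and 532 CPM in intermittent hypoxia, against 386, 468, 414 and 429 CPM in room air. Its mean was the same in both groups (424 ± 105 and 424 ± 34, SD, n = 4 each), but the intermittent hypoxia libraries spread about 3 times as widely, and the log2 difference had an SE of 0.16 (edgeR adjusted p = 0.994). Ugt1a6a, an enzyme of flat phenols, had 46.0, 31.4, 69.9 and 67.4 CPM in intermittent hypoxia, against 70.9, 85.7, 76.4 and 101 CPM in room air. Its groups only just failed to overlap, and it fell by 0.64 on the log2 scale (SE 0.19, edgeR adjusted p = 0.0135).

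Ugt1a6b, whose coding start is identical to that of Ugt1a6a, averaged 54.6 ± 20 CPM in intermittent hypoxia and 84.8 ± 15 CPM in room air (SD, n = 4 each), with overlap, and fell by 0.63 on the log2 scale (SE 0.19, edgeR adjusted p = 0.0141). Neither call held with only these groups in the fit. That of Ugt1a6a was also lost without room air replicate 4 (adjusted p = 0.0524), and that of Ugt1a6b without room air replicate 3 or intermittent hypoxia replicate 3 (adjusted p up to 0.0561). Ugt1a9, whose human counterpart conjugates phenols such as propofol, averaged 70.0 ± 13 CPM in intermittent hypoxia and 61.2 ± 16 CPM in room air (SD, n = 4 each), a log2 difference of 0.19 (SE 0.22). With the 9 members summed to 1 locus, which does not depend on how reads were divided among them, the log2 difference was -0.09 (edgeR adjusted p = 0.668).

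Among SULT genes, Sult2a8, a liver sulfotransferase of bile acids in mouse, had 409, 709.6, 655 and 655 CPM in intermittent hypoxia, against 1038, 946, 1011 and 970.6 CPM in room air. Intermittent hypoxia replicate 1 was the lowest of its group, and no value reached those of room air. The gene fell by 0.71 on the log2 scale (SE 0.16, edgeR adjusted p = 0.00174). Sult1b1, known for sulfonation of thyroid hormones, had 16.5, 10.4, 19.6 and 22.9 CPM in intermittent hypoxia, against 27.2, 24.7, 29.9 and 26.9 CPM in room air, and fell by 0.65 on the log2 scale (SE 0.23, edgeR adjusted p = 0.0330). Although its groups did not overlap, that call was lost without room air replicate 1, 3 or 4 or intermittent hypoxia replicate 1 or 2 (adjusted p up to 0.102), with upper-quartile scaling (0.0585) and without a filter on low counts (0.0621).

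The 2 members called higher were both SULT1 genes. Sult1a1, the main phenol sulfotransferase, had 266, 215, 298 and 403 CPM in intermittent hypoxia, against 198, 165, 249.8 and 212 CPM in room air. Its groups overlapped, with intermittent hypoxia replicate 4 above the rest, and the rise of 0.52 on the log2 scale (SE 0.19, edgeR adjusted p = 0.0374) was lost without room air replicate 1, 2 or 4 or intermittent hypoxia replicate 3 or 4 (adjusted p up to 0.181). Sult1e1, the estrogen sulfotransferase, had 34, 0, 12 and 59 expected counts in intermittent hypoxia, against 2, 3, 9 and 3 in room air. It passed the filter mainly through 3 intermittent hypoxia libraries, 1 library of its group was at 0, and its call (log2 2.77, SE 1.04, edgeR adjusted p = 0.0412) was lost when any of 10 libraries was left out: all 4 of room air, intermittent hypoxia replicates 1, 3 and 4, sustained hypoxia replicates 1 and 3 and overlap hypoxia replicate 3 (adjusted p up to 0.118). Sult1d1, a catecholamine sulfotransferase in mouse, averaged 153 ± 52 CPM in intermittent hypoxia and 156 ± 35 CPM in room air (SD, n = 4 each; log2 difference -0.03, SE 0.25).

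**Figure D3:**
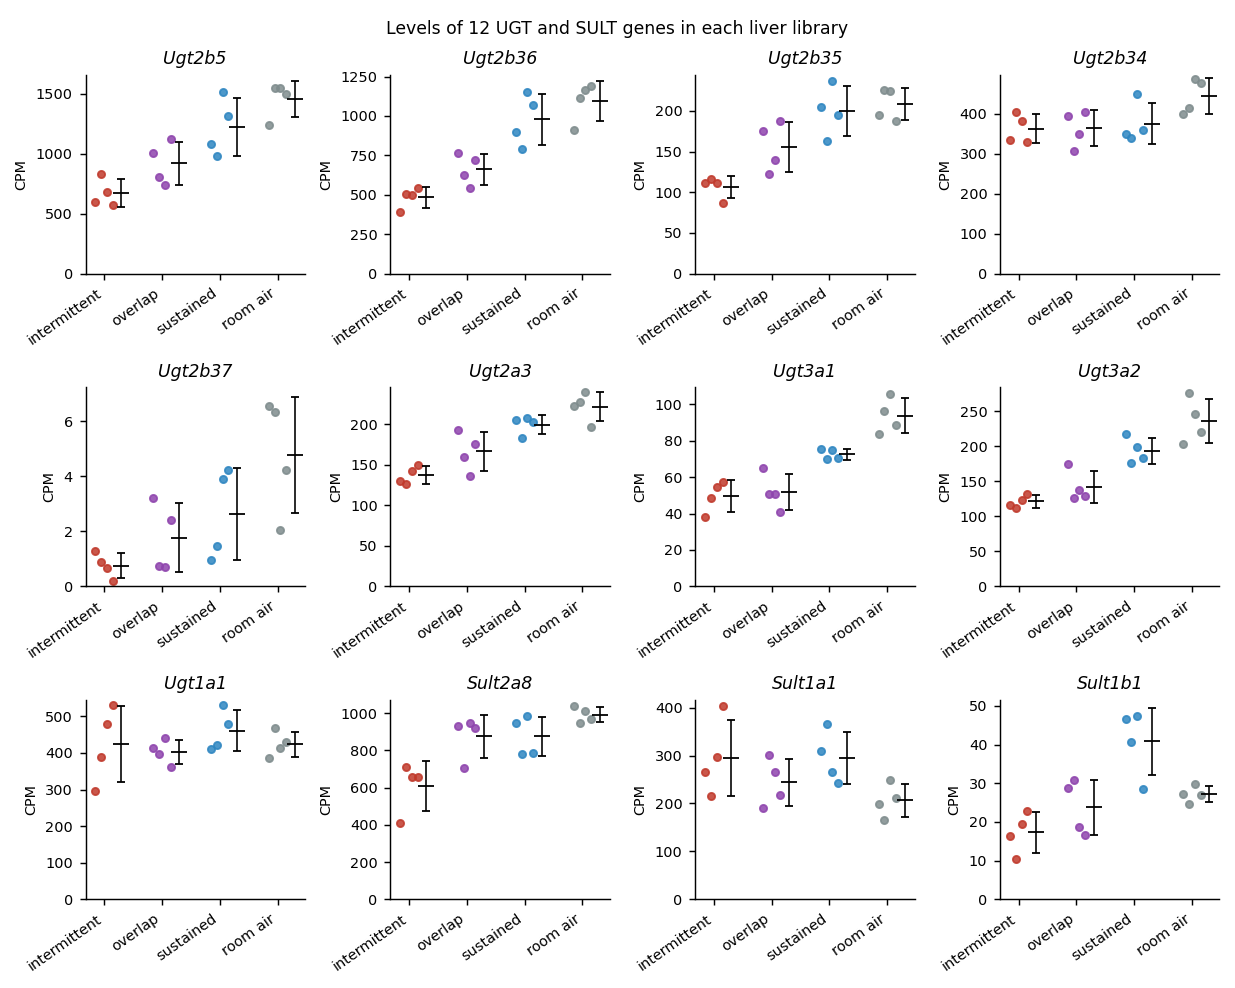
CPM of 12 members (vertical axes, from 0) in each liver library (coloured points, 4 per group), with the mean ± SD of the group as a black bar. Ugt2b5, Ugt2b36, Ugt2b35, Ugt2a3, Ugt3a1, Ugt3a2 and Sult2a8 have every intermittent hypoxia point below every room air point, whereas Ugt1a1, Ugt2b34 and Sult1a1 overlap.

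In all, 10 of 25 members had intermittent hypoxia libraries wholly below the room air libraries, against 18.0% of all genes tested, and 0 wholly above, against 17.4%. The ribosomal RNA share parts the same groups, so with it as a covariate the exposure is estimated only from what the share leaves, and 77 genes rather than 5404 were called. Ugt2b35 (log2 -1.47, edgeR adjusted p = 0.0303) and Ugt2b5 (log2 -1.49, adjusted p = 0.0495) were still called, and the other 11 members were not. Ugt2b36 then stood at -1.22 (adjusted p = 0.0791), Ugt3a2 at -0.88 (0.122), Ugt3a1 at -0.82 (0.169), Ugt2a3 at -0.81 (0.115) and Sult2a8 at -1.06 (0.103). Ugt2b37 stood at -4.19 (0.146), Sult1b1 at -0.18 (0.857), Ugt1a6a at -0.47 (0.545), Sult1a1 at 0.96 (0.166) and Sult1e1 at 3.91 (0.310), while Ugt1a6b turned to 0.04 (0.961). The part of the ribosomal RNA share in these results and that of the exposure cannot be told apart.

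In overlap hypoxia 5 members were called lower than in room air and none higher, against 2.89% of all genes called lower, 3.41% higher and 6.29% in all, and all 5 were UGT2 or UGT3 genes. The median log2 fold change of the 25 tested members was -0.29, against 0.03 for all genes. Ugt3a1 had 64.81, 50.5, 50.9 and 40.8 CPM in overlap hypoxia, against 84.0, 96.5, 106 and 88.8 CPM in room air. The groups were clearly apart, and it fell by 0.86 on the log2 scale (SE 0.15, edgeR adjusted p = 0.00480).

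Ugt3a2 had 175, 126, 138 and 129 CPM in overlap hypoxia, against 204, 276, 246 and 220 CPM in room air. Overlap hypoxia replicate 1 came nearest to the room air values without reaching them, and the gene fell by 0.73 on the log2 scale (SE 0.13, edgeR adjusted p = 0.00577). These 2 genes kept their calls in all 25 alternatives, including the ribosomal RNA share as a covariate.

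Ugt2b36 had 762, 626, 542 and 721 CPM in overlap hypoxia, against 911, 1115, 1166 and 1188 CPM in room air. The groups did not overlap, and it fell by 0.72 on the log2 scale (SE 0.16, edgeR adjusted p = 0.0123). Ugt2b5 had 1007, 806, 738 and 1124 CPM in overlap hypoxia, against 1238, 1548, 1550 and 1498 CPM in room air. It too was lower in every library and fell by 0.67 on the log2 scale (SE 0.17, edgeR adjusted p = 0.0261). The call of Ugt2b36 was lost without room air replicate 3 or overlap hypoxia replicate 3 (adjusted p up to 0.0535), and that of Ugt2b5 without room air replicate 2, 3 or 4 or overlap hypoxia replicate 1 or 3 (adjusted p up to 0.0978).

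Ugt2a3 averaged 166 ± 24 CPM in overlap hypoxia and 222 ± 18 CPM in room air (SD, n = 4 each), without overlap. Its fall of 0.41 on the log2 scale (SE 0.12) was at the threshold (edgeR adjusted p = 0.0499), and it was lost in 20 of 25 alternatives, among them leaving out any library but intermittent hypoxia replicate 2 (adjusted p up to 0.166). These 5 genes were the members whose overlap hypoxia libraries lay wholly below room air, against 7.14% of all genes tested, and 0 lay wholly above, against 6.58%.

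Ugt2b37 had 3.21, 0.730, 0.699 and 2.41 CPM in overlap hypoxia, against 6.56, 6.33, 2.04 and 4.23 CPM in room air. The groups overlapped, and the log2 difference of -1.37 (SE 0.63) did not pass the test (edgeR adjusted p = 0.211). Ugt2b35 averaged 156 ± 31 CPM in overlap hypoxia and 208 ± 20 CPM in room air (SD, n = 4 each), a log2 difference of -0.41 (SE 0.15, edgeR adjusted p = 0.106). No Ugt1a and no SULT gene passed the test: Ugt1a1 stood at -0.08 (SE 0.16), Sult2a8 at -0.18 (SE 0.16) and Sult1a1 at 0.24 (SE 0.19) on the log2 scale.

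In sustained hypoxia no member passed the test (edgeR, 0 of 25 called, against 0.0481% of all genes, 0.0206% higher and 0.0275% lower), nor did DESeq2 call any. At an unadjusted p under 0.05 there were 6, and the median log2 fold change of the 25 was -0.11, against -0.01 for all genes. The members with the lowest p were Ugt1a9, Sult1a1, Sult1b1 and Ugt3a1. Ugt1a9 had 83.0, 97.5, 117 and 99.0 CPM in sustained hypoxia, against 41.3, 74.6, 54.8 and 74.2 CPM in room air. All sustained hypoxia libraries were above all room air libraries, with a log2 difference of 0.69 (SE 0.22, edgeR adjusted p = 0.231). Ugt3a1 had 75.3, 69.9, 75.1 and 70.3 CPM in sustained hypoxia, against 84.0, 96.5, 106 and 88.8 CPM in room air. It was the only member wholly below room air there (against 4.32% of all genes), and Ugt1a9 the only member wholly above (against 4.60%).

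For Ugt3a1 the log2 difference was -0.37 (SE 0.15, edgeR adjusted p = 0.325). Sult1a1 averaged 296 ± 54 CPM in sustained hypoxia and 206 ± 35 CPM in room air (SD, n = 4 each; log2 difference 0.52, SE 0.19, edgeR adjusted p = 0.299), and Sult1b1 averaged 40.8 ± 8.7 CPM and 27.2 ± 2.1 CPM in the same groups (0.59, SE 0.23, adjusted p = 0.323). Ugt2b5 had 1079, 983, 1515 and 1311 CPM in sustained hypoxia and overlapped room air, with a log2 difference of -0.26 (SE 0.17, edgeR adjusted p = 0.613). Ugt2b37 had 0.957, 1.47, 3.91 and 4.24 CPM in sustained hypoxia, also overlapping room air (log2 difference -0.87, SE 0.61, edgeR adjusted p = 0.651).

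**Figure D4:**
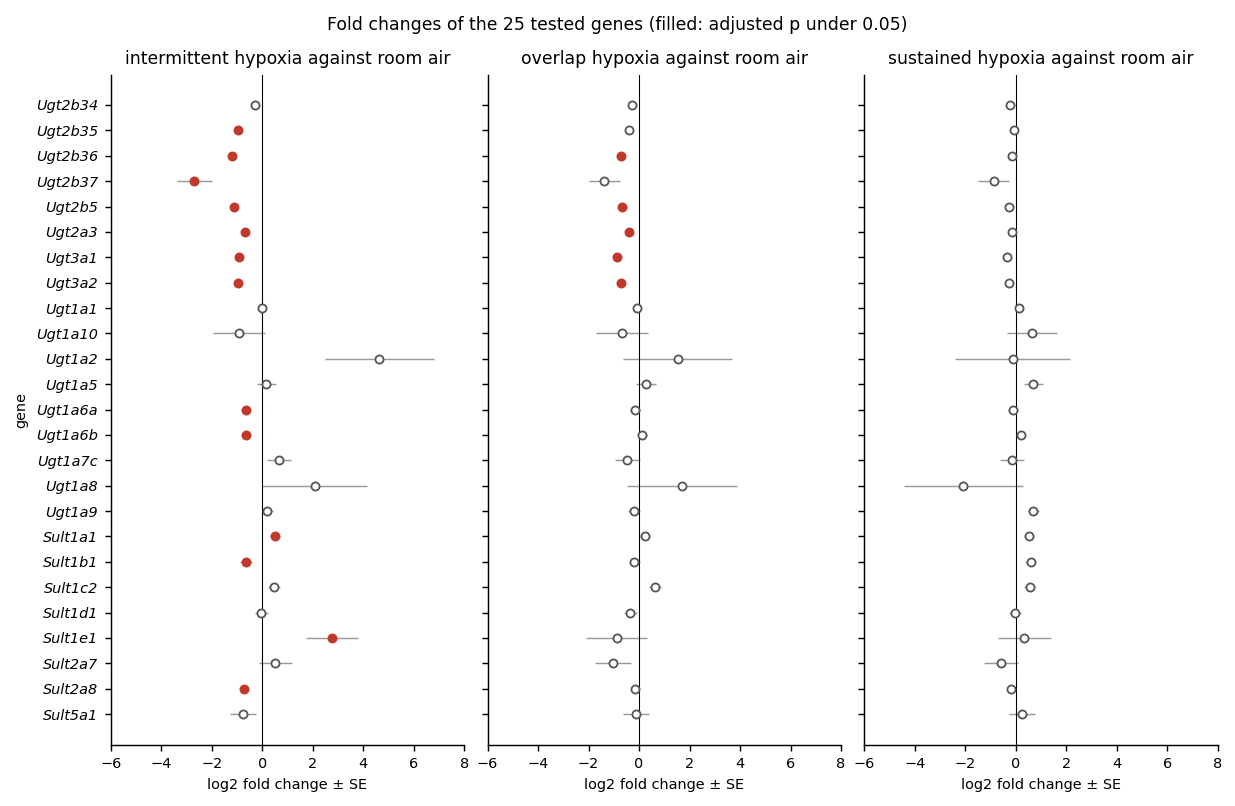
Log2 fold change against room air ± SE (horizontal axes) of the 25 tested members (rows, grouped by subfamily) in intermittent, overlap and sustained hypoxia. Filled points passed edgeR's test (13 in intermittent, 5 in overlap and 0 in sustained hypoxia); the 3 panels share the room air libraries, so their points are not independent.

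Between exposures, 11 of the 25 members were called lower in intermittent than in sustained hypoxia, none higher and 14 neither way, against 18.9% of all genes called lower, 19.5% higher and 38.4% either way. Of the 25, 9 had intermittent hypoxia libraries wholly below the sustained hypoxia libraries, against 18.0% of all genes, and 0 wholly above, against 17.7%. All 9 were among the 11 called. The 11 were Ugt2b36, Ugt2b35, Ugt2b5, Ugt2b37, Ugt2a3, Ugt3a1, Ugt3a2, Ugt1a6a, Ugt1a6b, Sult1b1 and Sult2a8. The smallest adjusted p was that of Ugt2b36, at 484 ± 67 CPM in intermittent hypoxia and 978 ± 163 CPM in sustained hypoxia (SD, n = 4 each), a difference of -1.01 on the log2 scale (SE 0.16, edgeR adjusted p = 8.96e-05). Sult1b1 differed most among the genes above 10 CPM: it had 16.5, 10.4, 19.6 and 22.9 CPM in intermittent hypoxia, against 46.6, 40.7, 47.4 and 28.5 CPM in sustained hypoxia. Those groups did not overlap, with a log2 difference of -1.23 (SE 0.23, edgeR adjusted p = 0.000516).

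Ugt1a6b averaged 54.6 ± 20 CPM in intermittent hypoxia and 96.5 ± 7.8 CPM in sustained hypoxia (SD, n = 4 each; log2 difference -0.82, SE 0.19, edgeR adjusted p = 0.00258). Ugt2b37 was at the threshold (log2 difference -1.81, SE 0.67, edgeR adjusted p = 0.0463), its groups overlapped, and its call was lost without any of 9 libraries: room air replicate 1, 2 or 4, sustained hypoxia replicate 3 or 4, intermittent hypoxia replicate 2, 3 or 4 and overlap hypoxia replicate 4 (adjusted p up to 0.120). That of Ugt1a6a (log2 difference -0.52, edgeR adjusted p = 0.0367) was lost without sustained hypoxia replicate 1 or 3 or intermittent hypoxia replicate 1 or 2 (adjusted p up to 0.124). With the ribosomal RNA share as a covariate none of the 11 was called, and the shares of these groups did not overlap.

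Overlap hypoxia stood above intermittent hypoxia for 2 members, against 3.20% of all genes called higher, 2.95% lower and 6.15% either way. These were also the only members whose libraries did not overlap, against 5.52% of all genes wholly higher and 5.68% wholly lower. Ugt1a6b had 78.7, 95.7, 103 and 87.7 CPM in overlap hypoxia, against 38.7, 64.4, 37.7 and 77.6 CPM in intermittent hypoxia. The groups came close but did not overlap, with a log2 difference of 0.74 (SE 0.19, edgeR adjusted p = 0.0319). Ugt2b35 had 175, 122, 139 and 188 CPM in overlap hypoxia, against 111, 116, 112 and 87.0 CPM in intermittent hypoxia. It too did not overlap (log2 difference 0.55, SE 0.15, edgeR adjusted p = 0.0380).

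Neither call held when intermittent hypoxia replicate 1, 2 or 3 or overlap hypoxia replicate 4 was left out, nor with the ribosomal RNA share as a covariate. That share did not overlap between these groups, so its part and that of the exposure cannot be told apart. The call of Ugt1a6b was also lost without overlap hypoxia replicate 2 or 3 (adjusted p up to 0.103), and that of Ugt2b35 without intermittent hypoxia replicate 4 or overlap hypoxia replicate 1 (adjusted p up to 0.147). Sult2a8, at 877 ± 115 CPM in overlap hypoxia and 607 ± 135 CPM in intermittent hypoxia (SD, n = 4 each), just missed the threshold (log2 difference 0.53, edgeR adjusted p = 0.0510). Ugt3a1 stood at 51.8 ± 9.9 CPM in overlap hypoxia and 49.5 ± 8.6 CPM in intermittent hypoxia (SD, n = 4 each; log2 difference 0.06, SE 0.15).

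Against sustained hypoxia, no member was called in overlap hypoxia by edgeR, against 0.165% of all genes, 0.137% higher and 0.0275% lower. In that comparison 8 members had an unadjusted p under 0.05, and DESeq2 called 5, all lower: Sult1b1, Ugt1a9, Ugt2b36, Ugt3a1 and Ugt3a2. Ugt1a9 had 46.7, 69.8, 32.3 and 63.5 CPM in overlap hypoxia, against 83.0, 97.5, 117 and 99.0 CPM in sustained hypoxia. Every overlap hypoxia library was below every sustained hypoxia library (log2 difference -0.90, SE 0.22, edgeR adjusted p = 0.0611). Ugt2b36 (-0.56, edgeR adjusted p = 0.0696), Ugt3a2 (-0.45, 0.0793) and Ugt3a1 (-0.49, 0.0797) had no overlap either, which makes 4 such members, against 5.58% of all genes wholly lower and 5.23% wholly higher. Without overlap hypoxia replicate 2, edgeR called 3 members lower.

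The counts of the pathway lists stand beside 18.9% of all genes called higher and 18.3% called lower in intermittent hypoxia, and 3.41% and 2.89% in overlap hypoxia. Of 9 genes of UDP-glucuronic acid supply and of other use of UDP-sugars (Ugt8a and Ugcg), 1 rose and 1 fell in intermittent hypoxia. Pgm1, which makes glucose 1-phosphate, rose by 0.52 on the log2 scale (62 CPM, against 43 CPM in room air, edgeR adjusted p = 0.00983). Ugp2, which makes UDP-glucose, fell by 0.77 (224 CPM, against 381 CPM in room air, edgeR adjusted p = 0.000604). None of the 9 was called in overlap hypoxia, and against sustained hypoxia 3 were called lower in intermittent hypoxia (Ugp2, Slc35b1 and Slc35d2). Ugdh, which oxidises UDP-glucose to UDP-glucuronic acid, averaged 99.2 CPM in intermittent hypoxia and 99.0 CPM in room air. The list's median log2 fold change was 0.00 in intermittent and 0.04 in overlap hypoxia, against 0.03 for all genes in each.

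Of 10 genes of PAPS supply and use, 2 rose and 3 fell in intermittent hypoxia (list median -0.09). Those higher were Slc26a1, a sulfate transporter (53.4 CPM, against 22.4 CPM in room air; log2 1.25, edgeR adjusted p = 3.66e-05), and Papss2, a PAPS synthase (64.5 CPM, against 33.8 CPM in room air; 0.93, adjusted p = 0.000488). Slc35b2, which carries PAPS into the Golgi, was lower (36.8 CPM, against 65.1 CPM in room air; -0.82, adjusted p = 0.000288). In overlap hypoxia Slc26a1 and Papss2 again rose, each by 0.66 on the log2 scale (edgeR adjusted p = 0.0325 and 0.0348), and no other of the 10 was called (list median -0.03).

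Of 11 transporters of conjugates and their precursors, 3 were called higher and 2 lower in intermittent hypoxia (list median -0.08). Abcc6 (log2 1.23, edgeR adjusted p = 1.65e-05) and Slco1a4 (1.15, adjusted p = 8.85e-05) rose, as did Abcc2, the canalicular exporter of bilirubin glucuronides, at 184 CPM against 99.7 CPM in room air (0.88, adjusted p = 0.000209). Slco1a1, an uptake carrier of organic anions, fell to 87.9 CPM, against 301 CPM in room air (log2 -1.78, edgeR adjusted p = 0.000142). Of 6 genes of conjugate hydrolysis, Arsa rose (log2 0.50, edgeR adjusted p = 0.0155) and Arsg fell (-1.67, adjusted p = 0.000687), both lysosomal sulfatases. No gene of these 2 lists was called in overlap hypoxia.

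Among 15 xenobiotic receptors and liver regulators, 1 was higher and 1 lower in intermittent hypoxia (list median 0.21). Arnt, the partner of hypoxia-inducible factors and of the aryl hydrocarbon receptor, rose by 0.61 on the log2 scale (12.5 CPM, against 8.23 CPM in room air; edgeR adjusted p = 0.00761), and Foxa3 fell by 0.85 (23.6 CPM, against 42.4 CPM in room air; adjusted p = 0.000159). None was called in overlap hypoxia. Of 12 other conjugating and related enzymes (Ephx1, Nqo1 and Slc27a5 among the related ones), 6 fell in intermittent hypoxia and none rose (list median -0.54). They included Baat, which joins bile acids to taurine or glycine (146 CPM, against 336.97 CPM in room air; log2 -1.21, edgeR adjusted p = 2.03e-05), Glyat, the glycine conjugase (-0.74, adjusted p = 0.000279), and Slc27a5, the bile acid-CoA ligase (-0.68, adjusted p = 0.00223).

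In overlap hypoxia 3 of those 12 fell (list median -0.38): Baat (log2 -0.70, edgeR adjusted p = 0.0155), Glyat (-0.45, adjusted p = 0.0489) and Nnmt, the nicotinamide methyltransferase (-1.19, adjusted p = 0.0432). No gene of the 8 pathway lists was called in sustained hypoxia. Of the sex-biased liver genes, in intermittent hypoxia 10 of 18 male-biased genes fell and none rose (list median -1.25). Slco1a1, also among the transporters, is in that list. Of 15 female-biased genes listed, 12 passed the filter on low counts, and of these 8 rose and none fell (list median 2.29, largest 8.55). A gene low in room air can pass that filter through intermittent hypoxia libraries alone. How many of the 12 did so was not examined. In overlap hypoxia none of either list was called. Nudt7, a male-biased hydrolase gene, averaged 227 CPM in intermittent hypoxia and 981 CPM in room air, and the female-biased Prlr, the prolactin receptor, 53.8 CPM and 19.3 CPM in the same groups.

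Hepatocyte markers summed to 56494 to 84479 CPM in intermittent hypoxia, 75516 to 89878 CPM in overlap hypoxia, 79245 to 89745 CPM in sustained hypoxia and 60656 to 87487 CPM in room air, overlapping throughout, with none of 6 markers at 0. Of the 6, Apoa1 (log2 -0.45, edgeR adjusted p = 0.0448) and Cps1 (-0.53, adjusted p = 0.0165) were called lower in intermittent hypoxia and none in overlap hypoxia. Sinusoidal endothelial markers summed to 55.8 to 68.2 CPM in intermittent hypoxia, 25.3 to 48.9 CPM in overlap hypoxia, 46.2 to 62.4 CPM in sustained hypoxia and 60.9 to 77.1 CPM in room air, with none of 5 at 0. Of the 5, Clec4g was called lower and Stab2 higher in intermittent hypoxia, and Clec4g and Kdr were called lower in overlap hypoxia. Kupffer cell markers summed to 22.7 to 49.1 CPM in intermittent hypoxia, 27.1 to 33.9 CPM in overlap hypoxia, 45.9 to 81.9 CPM in sustained hypoxia and 69.4 to 125 CPM in room air. All 6 were called lower in intermittent and in overlap hypoxia and none in sustained hypoxia, and none was at 0. Of 7 pericentral hepatocyte markers, 4 were higher in intermittent and 2 in overlap hypoxia, and of 6 periportal markers 1 was lower in intermittent hypoxia. These marker counts stand beside 18.9% of all genes called higher and 18.3% lower in intermittent hypoxia, and 3.41% and 2.89% in overlap hypoxia. In sustained hypoxia 0.0481% of all genes were called either way. The 1 periportal marker is near the share of all genes. The part of these cell markers in the members' results was not tested.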

How the data were processed

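RNA from 16 livers was sequenced, 4 libraries in each of 4 groups, taken from the titles. The authors deposited expected counts per gene, where a read with several possible genes is divided among them; 49.3% of nonzero values were not whole (tolerance 0.001). The submitters' processing notes name the tools RSEM and Bowtie 1.3.0 and the build GRCm38. Which annotation, aligner options and strandedness applied is not given in the sources used here. Symbols, gene types and coordinates came from GENCODE M21 by gene identifier (55227 of 55487 matched; the others took 0.0313% of the counts or less), and lengths are exon bases of that annotation.

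Counts were rounded to whole numbers, filtered with filterByExpr, scaled by TMM and fitted over all 16 libraries with edgeR 4.0.16 in R 4.3.3 (robust quasi-likelihood, 1 coefficient per group). The filter required about 0.233 CPM in at least as many libraries as a group holds, and it left 14553 genes, over which Benjamini-Hochberg adjustment was made at a threshold of 0.05. The SE of a log2 fold change is not an output of the test. It was taken as the absolute log2 fold change divided by the square root of the test's F statistic. Levels are CPM with TMM scaling. CPM per kb is CPM divided by exon length in kb. The labels do not say that libraries are separate animals beyond a number each, so a p-value reflects only how much these libraries spread, which may be technical. Libraries of a group differed by more than sampling noise (chi-square per degree of freedom 58.0 to 440.4 over 24 pairs). Intervals were not computed for single counts, since reads carry no molecular identifiers.

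The members and lists were chosen with earlier results of these data known. Named with values were Ugt2b37 and Ugt2b5, every member called in any comparison, the 2 members with the highest level per kilobase in each subfamily, the 4 members with the lowest p where none was called, and up to 3 called genes per pathway list; Ugt2b34, Ugdh and Abcc2, named beyond these, and the rare members in the closing observations were chosen after their values were seen. Alternatives were DESeq2 1.42.0, other scalings, no filter, only the groups compared, a replicate block, the ribosomal RNA share as a covariate, Ugt1a summed to 1 locus, and each library left out; removing ribosomal RNA, mitochondrial and Mup genes before scaling was chosen after seeing the data. A gene of the regulator list and a motif are not reported here.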

Additional observations from a re-analysis of the deposited data

Results flagged for a closer look

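In 11 of 100 sets of 4 libraries (25 members in 4 groups), a library stood apart from the other 3 of its group, where chance gives about 1 in 20 for values that are not tied. In 6 of the 11 the other 3 libraries were at 0, where any value above 0 stands apart, and in 5 they were not. Ugt1a2 reached 13.6 CPM in intermittent hypoxia replicate 2, 0.463 CPM in sustained hypoxia replicate 1 and 0.529 CPM in room air replicate 3. Ugt1a8 reached 4.81 CPM in overlap hypoxia replicate 3, 0.262 CPM in sustained hypoxia replicate 1 and 1.296 CPM in room air replicate 4. Sult1e1 reached 0.134 CPM in overlap hypoxia replicate 1, with the other 3 libraries of that group at 0. Sult2a7 reached 8.61 CPM in intermittent hypoxia replicate 4. Ugt1a6a was highest in overlap hypoxia replicate 2 at 87.6 CPM. On the low side stood Sult2a8 at 704.6 CPM in overlap hypoxia replicate 2 and Ugt2b5 at 1238 CPM in room air replicate 1.

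Effects that differed between exposures were found for members called in a direct test between them, by edgeR with an adjusted p under 0.05. In overlap against intermittent hypoxia these were Ugt1a6b (0.74) and Ugt2b35 (0.55), as log2 fold changes. In intermittent against sustained hypoxia they were Ugt2b37 (-1.81), Sult1b1 (-1.23), Ugt2b36 (-1.01), Ugt2b35 (-0.91), Ugt2b5 (-0.87), Ugt1a6b (-0.82), Ugt3a2 (-0.68), Ugt3a1 (-0.55), Ugt2a3 (-0.54), Sult2a8 (-0.53) and Ugt1a6a (-0.52). All were lower in intermittent hypoxia.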

How the results depend on the processing

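The 13 members called in intermittent hypoxia against room air became 2 with the ribosomal RNA share as a covariate, and the reversed value there was Ugt1a6b at 0.044 on the log2 scale (adjusted p = 0.961); other settings gave 10 to 14, and leaving out 1 library 9 to 13. Ugt2b35 and Ugt2b5 kept their calls in every alternative run. The 5 members called in overlap hypoxia were 4 or 5 in the other settings and 2 to 5 with 1 library left out. For overlap against intermittent hypoxia the 2 calls became 4 with DESeq2, 0 with only those groups in the fit, 0 with the ribosomal RNA share as a covariate, 1 with Ugt1a summed to 1 locus, and 0 to 2 with 1 library left out. For overlap against sustained hypoxia the count of 0 became 5 with DESeq2, 1 without a filter, and 0 to 3 with 1 library left out. For intermittent against sustained hypoxia the 11 calls became 0 with the ribosomal RNA share as a covariate and 9 to 12 with 1 library left out. Sustained hypoxia against room air gave 0 in every alternative run. The summed levels of the subfamilies moved by no more than 1 SD of their group in all 144 alternatives. Where 1 library was left out this was fixed in advance, since dropping 1 of 4 values cannot move their mean that far. Only the alternatives with other scalings could have moved further. The cause of these changes was not tested, except that a covariate which parts the groups leaves less of the difference to the exposure.

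Same-numbered libraries correlated between -0.10 and 0.18, over 0.1 in only 4 of 24 pairs, so the numbers were not taken to pair the samples. As a hint from the data, not the design, 9 of 16 libraries had their highest mean correlation with the other groups' libraries of their own number. With the replicate block, 10 members were called in intermittent hypoxia (all lower, without Sult1a1, Sult1b1 and Sult1e1, at adjusted p between 0.0526 and 0.0842), 5 in overlap hypoxia and 0 in sustained hypoxia against room air, 2 in overlap against intermittent hypoxia, 0 in overlap against sustained hypoxia and 10 in intermittent against sustained hypoxia (without Ugt2b37). Upper-quartile scaling shifted the median log2 change of all genes to 0.12, both for intermittent hypoxia against room air (12 members called) and against sustained hypoxia (9 called).

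Depth limits the members under 2 CPM, of which Ugt1a2, Ugt1a8 and Sult1e1 reached the filter in 4 to 6 libraries. Counts of Ugt1a members, and in part those of Ugt2b5 and Ugt2b37, depend on how shared reads were divided. The strand of the reads counted for Ugt1a members is unknown.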

Other observations

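Several rare members were seen in scattered libraries. Sult3a1 had 1.48 CPM in intermittent hypoxia replicate 4 and at most 0.0622 CPM in every other library, and Sult2a7 was highest in the same library at 8.61 CPM, against 1.38 to 1.43 CPM in the other intermittent hypoxia libraries. Ugt1a10, a Ugt1a member of low level in these livers, was listed at 0 in intermittent hypoxia replicate 3 and overlap hypoxia replicate 3 and reached 4.13 CPM in sustained hypoxia replicate 3. Sult5a1 ranged between 2.19 and 7.37 CPM in intermittent hypoxia, 2.73 and 13.1 CPM in overlap hypoxia, 4.32 and 14.0 CPM in sustained hypoxia, and 4.06 and 10.47 CPM in room air.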
